A study of Mus musculus and Homo sapiens with 12 samples.

Results

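The elements described here are the mouse endogenous retrovirus copies whose subfamily name starts with RLTR10 or MMERVK10 within the ERVK family, selected by name alone from a table of repeat elements on mm10. They number 9353 elements in 13 subfamilies, of 3158171 elements and 1205 subfamilies in the table, and 4929 of them held counts in at least 1 library, against 318953 in the table. The measurement was m5C meRIP–seq of chromatin-associated RNA (caRNA), in which the RNA retained on chromatin was precipitated with an antibody to 5-methylcytosine (m5C) and sequenced. The libraries came from mouse embryonic stem (mES) cells of 2 genotypes, wild type (WT) and Tet2 knockout (Tet2-KO), with 3 libraries each, and the comparison asks whether loss of Tet2 altered the m5C-precipitated RNA of each subfamily and copy. Both lines were received from another laboratory, so each genotype was represented by 1 line. They were grown with serum, LIF, CHIR99021 and PD0325901, and feeder cells were removed by passages on gelatin before the experiments. The study's text speaks of biological replicates, but nothing in the labels says whether those of a genotype were separate cultures, and p-values measure the spread between these libraries.

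The columns used here are immunoprecipitated RNA without input or spike-in, so changes in RNA amount and in m5C enrichment cannot be separated, and every level is set against the remaining repeats of its library. Fewer cells and less RNA per cell cannot be told apart either. Tet2 itself and cell type markers are no repeat elements, and neither the knockout nor the cell type was checked in this table. Library totals over DNA, LINE, LTR and SINE elements lay between 2199886 and 3318565 counts in WT libraries and between 1532029 and 1999210 in Tet2-KO libraries. The member elements took 1.39%, 1.24% and 1.14% of these counts in WT 1 to 3 and 1.29%, 1.41% and 1.95% in KO 1 to 3. The KO mean was 0.295 percentage points above WT, against a pooled SD of 0.265, and 0.0956 points above it without KO 3.

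ERVK elements are remnants of retroviruses that once inserted into the germ line. An intact copy carries a long terminal repeat (LTR) at each end, which holds the promoter and the polyadenylation signal, and an internal part that coded for viral proteins. MMERVK10C-int is such an internal part and RLTR10C is the LTR annotated at its ends, whereas RLTR10-int is the internal part named with the RLTR10 LTRs. NSUN2 is a methyltransferase that writes m5C in RNA, commonly 5′ of a G-rich stretch, and TET2 is a dioxygenase that oxidises methylated cytosine.

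RLTR10 copies are shown first because they hold most of the member counts and because the study designed a bisulfite amplicon on them. Both primer sequences were searched in the mm10 genome after changing C to T in silico, and exact matches gave 769 sites, 768 of them in 582 member elements, with 566 distinct sequences of 83 to 403 bases (median 169). The sites differ mainly in the number of GATATAAA units, given in capitals below, which ran from 0 to 16 with a median of 4. The first sequence carries 1 unit, the second carries 3 and is shared by 9 sites, and the third carries 11 and lies in an element annotated as RLTR10-int.
RLTR10, 1 unit (chrX:108206157-108206239, plus strand): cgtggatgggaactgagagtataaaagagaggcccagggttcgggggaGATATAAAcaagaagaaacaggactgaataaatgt
RLTR10, 3 units (chr5:54548625-54548741, minus strand): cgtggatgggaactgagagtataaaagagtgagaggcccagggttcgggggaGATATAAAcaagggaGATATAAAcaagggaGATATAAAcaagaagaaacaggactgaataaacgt
RLTR10-int, 11 units (chr13:28215939-28216235, minus strand): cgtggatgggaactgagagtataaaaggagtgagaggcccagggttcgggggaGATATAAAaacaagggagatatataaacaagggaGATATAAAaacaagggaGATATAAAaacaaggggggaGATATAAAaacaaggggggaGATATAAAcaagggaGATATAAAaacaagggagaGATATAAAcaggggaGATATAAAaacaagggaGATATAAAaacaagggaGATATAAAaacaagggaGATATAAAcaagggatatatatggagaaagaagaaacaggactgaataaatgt

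The next sequences are the last 300 bases, read 5′ to 3′, of 2 RLTR10C elements, shown because elements of this subfamily with and without TATAAA differed in level. Capitals mark TATAAA, the letters of a TATA box, and AATAAA, those of a polyadenylation signal. The first element carries both and was chosen among loci that were higher in every Tet2-KO library than in any WT library. The second carries AATAAA alone, reads tatata where the first reads TATAAA, and had counts in WT 1 only. Elements are split by these exact letters, so those without TATAAA may hold other TATA-like letters.
RLTR10C with TATAAA (chr5:9452729-9453028, minus strand): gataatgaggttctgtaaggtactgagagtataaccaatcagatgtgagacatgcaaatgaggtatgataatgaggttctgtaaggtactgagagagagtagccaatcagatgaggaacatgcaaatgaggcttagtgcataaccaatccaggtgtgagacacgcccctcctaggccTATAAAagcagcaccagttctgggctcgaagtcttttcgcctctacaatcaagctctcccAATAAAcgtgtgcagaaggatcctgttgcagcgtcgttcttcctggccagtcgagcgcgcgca
RLTR10C without TATAAA (chr4:82721775-82722074, minus strand): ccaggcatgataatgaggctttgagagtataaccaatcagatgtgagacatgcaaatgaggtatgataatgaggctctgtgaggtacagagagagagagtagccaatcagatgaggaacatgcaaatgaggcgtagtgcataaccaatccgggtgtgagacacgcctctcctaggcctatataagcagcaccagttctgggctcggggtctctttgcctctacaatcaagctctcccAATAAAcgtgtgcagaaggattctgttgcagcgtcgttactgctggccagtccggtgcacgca

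The starts of 2 MMERVK10C-int elements are shown because these copies lay at opposite ends of the KO against WT comparison. Capitals mark CNGGG, a C, any base and then GGG, which is the context known for NSUN2 sites. The last sequence is the 3′ end of an RLTR10D element that is identical to 2 other copies on chromosome 12, with AATAAA in capitals.
MMERVK10C-int, chromosome 10 (chr10:21735762-21735911, minus strand): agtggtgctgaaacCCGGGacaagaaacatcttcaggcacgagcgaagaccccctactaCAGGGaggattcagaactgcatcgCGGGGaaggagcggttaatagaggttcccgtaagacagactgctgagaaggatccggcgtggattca
MMERVK10C-int, chromosome 12 (chr12:20177457-20177606, plus strand): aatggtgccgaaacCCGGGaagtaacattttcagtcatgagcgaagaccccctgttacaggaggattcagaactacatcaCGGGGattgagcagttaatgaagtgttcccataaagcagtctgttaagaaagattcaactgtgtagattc
RLTR10D, chromosome 12 (chr12:22417395-22417544, minus strand): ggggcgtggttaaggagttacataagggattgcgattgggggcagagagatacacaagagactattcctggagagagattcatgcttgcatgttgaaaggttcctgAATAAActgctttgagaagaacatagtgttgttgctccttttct

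The repeated unit of the amplicon was common in RLTR10 and rare in other repeats. GATATAAA, which contains TATAAA, lay on the sense strand in the last 300 bases of 95.1% of RLTR10 elements of at least that length, against 1.71% of all repeat elements with counts, and on the other strand in 0.0532% and 0.318%. CNGGG was present in 767 of the 769 amplicon sites (99.7%), and the sites held 7 to 26 cytosines (median 13). The 582 elements with the amplicon had 2493, 2626 and 1816 CPM (the usual library-size scaling of counts, with TMM factors) in WT 1 to 3 and 2559, 2337 and 2333 CPM in KO 1 to 3. The groups overlapped, and the log2 ratio of the KO to the WT mean was 0.06, with no test on the sum.

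No member subfamily was called different between WT and Tet2-KO mES cells. Of 13 subfamilies 12 had enough counts for edgeR's quasi-likelihood test over 547 subfamilies of the whole table, and 0 were called at an adjusted p under 0.05, against 2.01% of all subfamilies. At an unadjusted p under 0.05 the member count was also 0, against 15.9% of all, and DESeq2 called 0 as well, against 10.2%. The lowest adjusted p among the members was 0.353. The fitted log2 change (KO over WT) was above 0 in 8 of the 12, with a median of 0.10 beside 0.12 for all tested subfamilies, and it was -0.24 beside 0.05 without KO 3. Scaling by library totals alone moved both medians, to 0.28 for the members and 0.29 for all.

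RLTR10, an LTR subfamily with 2032 elements, held 55.6% of all member counts. Of its 105938 counts 94936.5 were in 806 elements joined from several fragments. These had a median length of 2864 bases, against 374 for single fragments. At this length the joined elements typically reach beyond a single LTR fragment, so the subfamily level cannot be read as that of LTRs alone. Which sequence they span was not examined. RLTR10 levels were 8218, 7421 and 6656 CPM in WT and 7956, 6542 and 9793 CPM in Tet2-KO. The groups overlapped, with a log2 change of 0.12 ± 0.169 (SE, n = 3 per group, edgeR adjusted p = 0.760) and a 95% interval from -0.27 to 0.52. Its counts were spread widely, since 97 elements were needed to reach 50% of them and the highest element gave 2.44%. RLTR10-int, the internal part, read 1296, 865 and 463 CPM in WT and 908, 512 and 714 CPM in Tet2-KO. These groups overlapped too, with a log2 change of -0.30 ± 0.419 (edgeR adjusted p = 0.768).

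MMERVK10C-int, which covers the gag, pro and pol coding region, held 19.6% of the member counts. It read 2422, 2768 and 2977 CPM in WT and 1933, 2982 and 3078 CPM in Tet2-KO, so KO libraries were both the lowest and the highest. The log2 change was -0.03 ± 0.215 (edgeR adjusted p = 0.952), with an interval from -0.54 to 0.47. RLTR10C, its LTR, read 1753, 1136 and 1919 CPM in WT and 1190, 2456 and 2343 CPM in Tet2-KO. KO 2 and KO 3 lay above every WT library and KO 1 within them, and the log2 change of 0.32 ± 0.334 (edgeR adjusted p = 0.682) had an interval from -0.47 to 1.10. Per length, summed over all elements of a subfamily, RLTR10 had 39.99 counts per kb over the 6 libraries, RLTR10B 37.9, RLTR10C 32.4, RLTR10-int 18.1 and MMERVK10C-int 11.05.

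MMERVK10D3_LTR was the only member subfamily whose groups did not overlap. It read 43.2, 67.4 and 117 CPM in WT and 30.0, 16.9 and 40.2 CPM in Tet2-KO. The log2 change was -1.36 ± 0.680 (unadjusted p = 0.0839, edgeR adjusted p = 0.353), and groups that do not overlap were found in 21.2% of all tested subfamilies, in 10.4% with Tet2-KO lower. A single joined element of 12339 bases, chrX:121549140-121561478, supplied 76.3% of its counts, and without it the log2 change was -0.53 (edgeR adjusted p = 0.646). The matching internal part MMERVK10D3_I-int read 27.5, 36.1 and 12.7 CPM in WT and 30.4, 35.1 and 20.4 CPM in Tet2-KO, with overlapping groups and a log2 change of 0.16 ± 0.591 (edgeR adjusted p = 0.910).

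The smaller LTR subfamilies varied widely between libraries of 1 genotype. RLTR10B read 155, 423 and 172 CPM in WT and 248, 57.1 and 487 CPM in Tet2-KO, and RLTR10B2 read 62.2, 289 and 64.6 against 105, 77.3 and 249.9 CPM. RLTR10D ran from 2.68 to 198 CPM in WT and from 7.38 to 763 CPM in Tet2-KO, with a log2 change of 2.29 ± 1.84 (edgeR adjusted p = 0.554). That change was 0.87 without KO 3, 6.01 without WT 1 and 0.69 without the elements of an interval of chromosome 12 described further on. RLTR10E ran from 11.3 to 221 CPM and from 3.81 to 414 CPM, and RLTR10A from 19.6 to 125 CPM and from 8.92 to 323 CPM. RLTR10F stayed between 3.42 and 37.0 CPM in all 6 libraries. RLTR10D2 had too few counts for the test, with 3.08 to 8.39 CPM per library. For RLTR10E and RLTR10A a single element gave 59.1% and 48.9% of the counts, so these levels describe few copies.

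**Figure D1:**
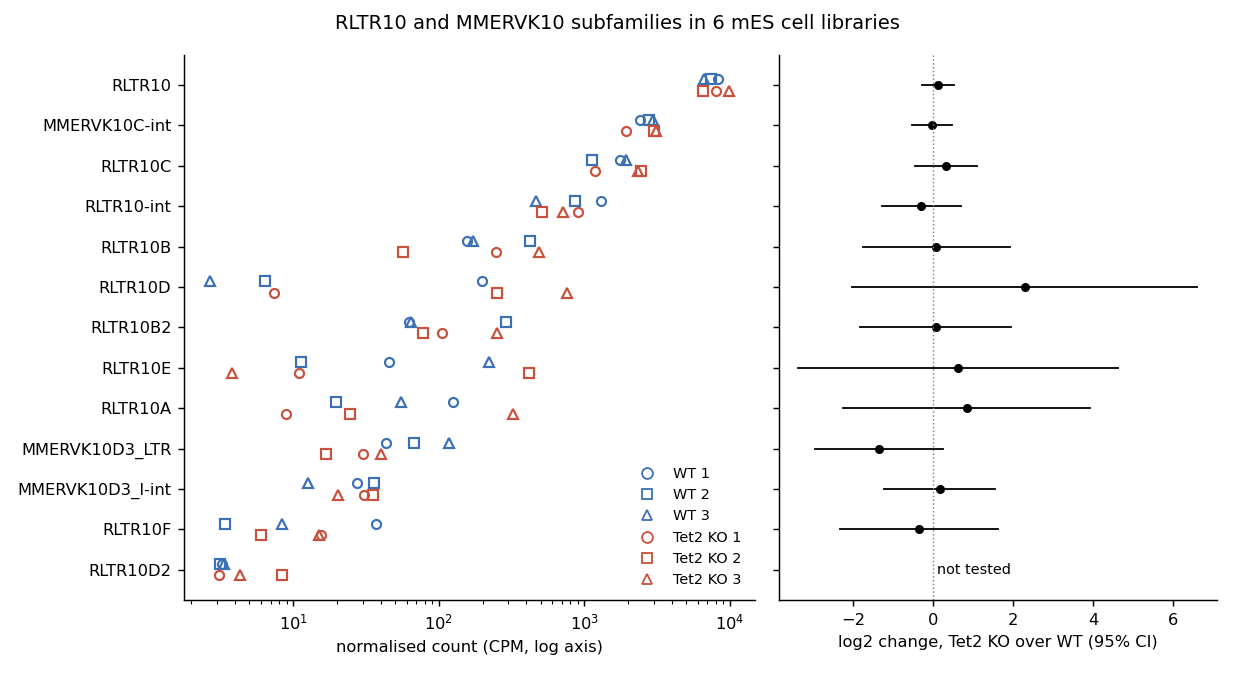
Level of each RLTR10 and MMERVK10 subfamily in CPM (log axis) in the 3 WT and 3 Tet2-KO libraries, 1 point per library. The groups overlap in every tested subfamily except MMERVK10D3_LTR, and RLTR10D and RLTR10E spread widely within a genotype, from 7.38 to 763 and from 3.81 to 414 CPM in Tet2-KO.

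Proviral structure separated the levels of MMERVK10C-int. Of its 1079 elements, 252 had RLTR10C annotated within 20 bases of both ends, and 247 of these had counts, at 16.9 counts per kb. The 59 elements with RLTR10C at 1 end had 12.2 counts per kb, and the 768 with none had 5.88, of which 322 had counts. Copies with RLTR10C at both ends read 1504, 1534 and 1780 CPM in WT and 1376, 2122 and 2350 CPM in Tet2-KO. The groups overlapped, with a log2 ratio of the means of 0.28. Only RLTR10C was looked for, so copies without it may have another LTR at an end. Copies with no RLTR10C at an end read 578, 935 and 994 CPM in WT. In Tet2-KO they read 446, 626 and 489 CPM, with a log2 ratio of -0.68. The opposite signs of these ratios were not tested, and the second one rested on a stretch of chromosome 12 described next. Copies with RLTR10C at 1 end read 340, 299 and 203 CPM in WT and 110, 234 and 240 CPM in Tet2-KO, overlapping, with a log2 ratio of -0.53.

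An interval of chromosome 12, whose 142 member elements lie between positions 18556720 and 24311152, held 38 of the MMERVK10C-int elements, including the pair with the lowest fitted log2 changes of all named loci. The 25 of them with counts summed to 84.3, 309 and 662 CPM in WT and 8.89, 131 and 46.6 CPM in Tet2-KO, a log2 ratio of -2.50 between groups that overlapped. This interval was chosen after its values were seen. Without it, copies with no RLTR10C at an end read 505, 650 and 347 CPM in WT and 444, 508 and 487 CPM in Tet2-KO. Their log2 ratio was then -0.06, while that of copies with RLTR10C at both ends stayed at 0.28. Grouped by consensus instead, copies that did not reach within 50 bases of both consensus ends had a log2 ratio of -0.54. Without the interval it was -0.32, between groups that overlapped. All MMERVK10C-int elements outside the interval read 2338, 2458 and 2315.5 CPM in WT and 1924, 2852 and 3032 CPM in Tet2-KO, with a log2 ratio of 0.13.

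**Figure D2:**
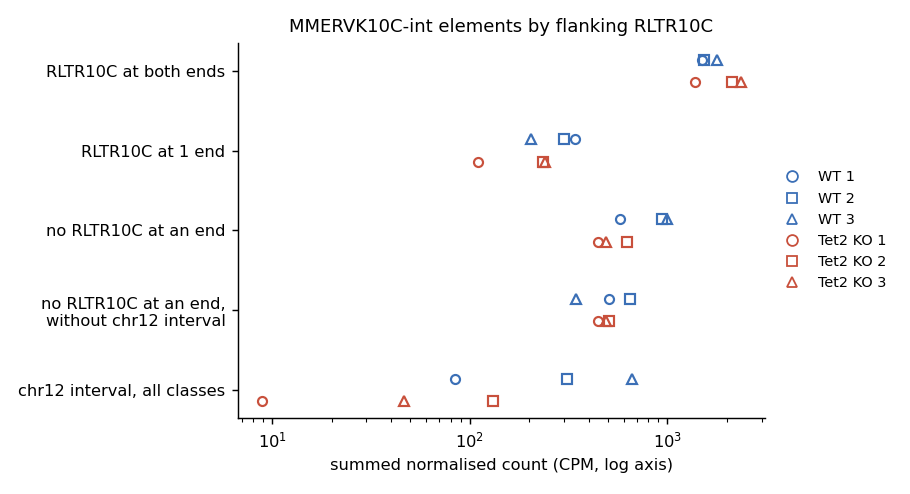
Summed CPM per library of MMERVK10C-int elements by structure class and position, for WT and Tet2-KO, 1 point per library. Elements in the chromosome 12 interval reach 662 CPM in WT 3 and at most 131 CPM in Tet2-KO, whereas elements outside it with no RLTR10C at an end read 347 to 650 CPM in WT and 444 to 508 CPM in Tet2-KO.

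The LTRs of these proviruses followed the same division. Of the RLTR10C elements beside an MMERVK10 internal part 455 had counts (81.0%), at 54.6 counts per kb, whereas 825 of the 1168 that stood alone had counts (70.6%), at 21.7 counts per kb. Those beside an internal part read 858, 765 and 896 CPM in WT and 591, 1354 and 1446 CPM in Tet2-KO, with KO 1 below and KO 2 and KO 3 above the WT libraries. RLTR10 showed a comparable split by annotation. The 806 elements joined from several fragments, with a median length of 2864 bases, had 43.3 counts per kb, and the 1226 single fragments, with a median of 374 bases, had 24.2. The joined elements read 7642, 6282 and 6142 CPM in WT and 7013, 5936 and 8814 CPM in Tet2-KO, and the groups overlapped.

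RLTR10C elements differed in level by the letters TATAAA in their last 300 bases. Among RLTR10C elements of at least 300 bases, 841 held them on the sense strand, and 94.6% of these had counts, at 56.1 counts per kb. The other 839 had counts in 56.5% of cases, at 7.67 counts per kb. Elements with the motif read 1103, 918 and 1842.5 CPM in WT and 1147, 2398 and 2199 CPM in Tet2-KO, and those without read 649.8, 212 and 71.7 against 42.6, 55.0 and 143 CPM. KO 2 and KO 3 were the highest libraries with the motif and WT 1 the highest without, and the groups overlapped in both classes. All 73 RLTR10C elements that passed the filter of the locus fit held the motif.

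RLTR10B2 and RLTR10B, related LTRs, were split in the same direction. The 84 RLTR10B2 elements with TATAAA had 50.4 counts per kb and the 644 without had 1.60. The 62 RLTR10B elements with it had 76.8 against 4.57 in the 83 without. Only 145 of the 372 RLTR10B elements reached 300 bases, and shorter ones are left out of this split. In RLTR10, where 96.3% of elements held TATAAA, the values with and without it were 40.8 and 22.5. The order was the opposite in RLTR10A (0.767 with, 5.22 without), RLTR10D (1.197 and 16.2), RLTR10E (5.34 and 25.8), MMERVK10C-int (1.995 and 11.5), MMERVK10D3_LTR (2.68 and 3.72) and MMERVK10D3_I-int (0.296 and 0.731). Single elements gave 48.9% of the RLTR10A, 59.1% of the RLTR10E and 76.3% of the MMERVK10D3_LTR counts, and the chromosome 12 interval gave 96.9% of those of RLTR10D. In RLTR10-int the values were 17.8 and 17.3. Among elements of at least 300 bases, to which all these shares refer, 56.0% of the members with counts held TATAAA on the sense strand and 0.926% on the other, against 13.9% of members without counts on the sense strand, 14.5% and 30.8% of all repeat elements with counts, and 3.87% of IAP elements, another ERVK group. AATAAA, whose letters can overlap those of TATAAA, was on the sense strand in 80.8% of members with counts and 80.5% of those without, against 53.6% of all repeat elements with counts, and on the other strand in 9.09% of members with counts and 8.11% of all.

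The CNGGG context was frequent in these copies and in other repeats. Its shares are of elements of at least 300 bases. It lay in the first 300 bases of 91.2% of the members with counts on the sense strand and 84.1% on the other, against 68.8% and 64.9% of all repeat elements with counts and 97.6% of IAP elements on the sense strand. It was present in 99.2% of RLTR10, 83.6% of RLTR10C and 83.1% of MMERVK10C-int elements. Median GC content was 48.8% in members with counts and 44.8% in all repeat elements with counts, and the ratio of observed to expected CpG was 0.446 and 0.179. By position, 4.73% of members with counts overlapped an annotated exon, 20.1% lay in a gene outside exons and 75.2% lay outside genes, against 4.43%, 40.5% and 55.1% of all repeat elements with counts. Of members in genes 38.3% ran in the sense direction of the gene, against 51.6% of all.

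At single loci, 0 of 401 tested member elements were called by edgeR at an adjusted p under 0.05, against 0.0473% of the 19030 tested elements of the table. These 401 were 8.14% of the 4929 members with counts, and because an element could pass the filter through the group where it was high, their medians and counts are descriptions only. At an unadjusted p under 0.05 there were 63 members (15.7%, against 21.0% of all), 42 higher and 21 lower in Tet2-KO (13.1% and 7.92% of all). Groups did not overlap in 63 members (15.7%, against 27.7% of all), 38 higher and 25 lower in Tet2-KO (15.0% and 12.7% of all). DESeq2 called 40 of the 401 (9.98%, against 11.3% of all). Of these, 29 were higher in Tet2-KO, as were 1507 of the 2158 elements called in the whole table. In each of these counts the members' share of their tested elements lay below that of the whole table.

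The fitted log2 change was above 0 in 269 of the 401 loci, with a median of 0.73 beside 0.03 for all tested elements. For the same counts the scaling of the locus fit gives higher KO over WT values than that of the subfamily fit, so the 2 levels are not directly comparable. Leaving out KO 2 or KO 3 gave member medians of 0.39 and 0.42 beside -0.06 for all, library totals as scale gave 0.49 beside -0.21, and a looser filter gave 0.24 over 1851 members beside -0.17. The median was 1.15 in RLTR10C, with 66 of 73 loci above 0, 0.85 over 19 loci of RLTR10-int, 0.55 over 113 of MMERVK10C-int and 0.43 over 183 of RLTR10. Each other subfamily had at most 5 tested loci. A median of this size was not particular to these elements, since ETn and MusD, another ERVK group, had 219 of 279 loci above 0 and a median of 0.76, whereas IAP had 1183 of 2133 and a median of 0.14. Of those loci 0 and 1 were called, and 22.2% and 11.1% had an unadjusted p under 0.05.

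Single copies differed strongly between libraries of 1 genotype. Among members with at least 50 counts, 546 of 887 (61.6%) drew 50% or more of their counts from a single library, against 39.0% of 28869 elements of the table, 51.7% of ERVK elements and 46.3% of IAP elements. With 90% or more from a single library the shares were 13.3% of members, 14.3% of all, 18.3% of ERVK and 14.02% of IAP elements. In RLTR10 the share was 67.8% of 457 elements, and it was higher at higher counts, with 56.5% at 50 to under 100 counts, 73.2% at 100 to under 200, 77.2% at 200 to under 500 and 81.3% of the 32 elements with 500 or more. Over all elements it went the other way, from 57.4% to 13.6% between the same bins. RLTR10C had 50.0% and MMERVK10C-int 48.3% of such elements. By comparison, the RLTR10 sum over 1627 elements with counts varied from 6542 to 9793 CPM.

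**Figure D3:**
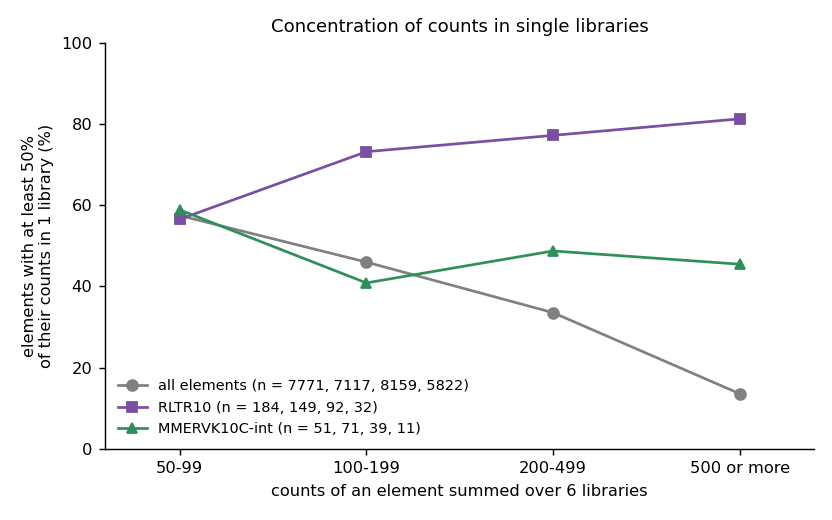
Percent of elements with at least 50% of their counts in 1 of the 6 libraries, by total counts of the element. The share falls from 57.4% to 13.6% over all repeat elements and runs from 56.5% to 81.3% in RLTR10, with MMERVK10C-int between 40.8% and 58.8%.

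The highest RLTR10 copies showed this directly. The element chr7:78898962-78901831 (plus strand, 2870 bases), which overlaps an exon and a start site of Aen, an exonuclease gene of the p53 response, in the same direction, read 5.17, 327 and 7.32 CPM in WT and 561.7, 1.92 and 567 CPM in Tet2-KO. One WT library and 2 KO libraries were high, the groups overlapped, and the log2 change was 1.73 ± 1.91 (edgeR adjusted p = 0.636). The element chr12:36099372-36102169 in Bzw2 had 324 CPM in WT 3 and 797 CPM in KO 2 and at most 2.88 CPM in the other libraries, and did not pass the filter. The element chr12:19559466-19562803 read 5.09, 32.6 and 3.11 CPM in WT and 366, 3.39 and 695 CPM in Tet2-KO, with KO 2 inside the WT range. Of the 10 highest elements 9 were RLTR10, 7 drew 50% or more from a single library, and together they held 8.02% of the member counts. The MMERVK10C-int element among them, chr16:34581508-34591124, was detected more evenly, with 51.6, 105 and 64.0 CPM in WT and 36.2, 232 and 38.9 CPM in Tet2-KO.

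The loci with the largest fitted differences were taken from 38 elements. These had an unadjusted p under 0.05, no overlap and a mean of at least 20 counts. Of them, 20 were higher and 18 lower in Tet2-KO, and their lack of overlap was set by the choice. How many of all tested elements met these conditions together was not counted. Taken singly, p and overlap gave 15.7% and 15.7% of members, against 21.0% and 27.7% of all tested elements. None of the 38 passed the adjusted threshold, and a fitted fold against a group near 0 depends on the prior count. An RLTR10 element and the RLTR10-int element next to it on chromosome 13, both on the minus strand, differed together. Whether the adjoining elements share a transcript was not tested, so they are not independent observations. The RLTR10 element, chr13:105123494-105126294, had 15.17, 3.25 and 19.74 counts in WT and 130.43, 121.89 and 238.62 in Tet2-KO. Every KO library was above every WT library, and the log2 change was 4.36 ± 0.714 (edgeR adjusted p = 0.0998). The RLTR10-int element, chr13:105126297-105128671, lies 1330 bases from Rnf180, a ubiquitin ligase gene, and read 4.19, 0.58 and 5.01 CPM in WT and 40.5, 63.1 and 167 CPM in Tet2-KO, again without overlap (log2 change 4.40 ± 0.849, edgeR adjusted p = 0.101).

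The MMERVK10C-int elements chr10:21728332-21735911, whose start is printed above, and chr15:89943437-89951016 were also higher in every KO library, as the choice required. They are 99.9% identical, with 9 edits over 7580 bases. The first read 3.36, 4.26 and 1.43 CPM in WT and 21.2, 50.8 and 193 CPM in Tet2-KO, and the second 9.16, 3.23 and 2.06 CPM in WT and 31.8, 23.3 and 392 CPM in Tet2-KO. KO 3 was the highest library for both. Whether reads were divided between copies this similar was not tested, so they are not independent observations. The RLTR10C element chr5:9452729-9453159, printed above, lies antisense in 9330182L06Rik and read 1.79, 0.49 and 0.13 CPM in WT and 46.9, 8.05 and 46.6 CPM in Tet2-KO (log2 change 4.34 ± 1.00, edgeR adjusted p = 0.103).

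Lower in Tet2-KO were a pair of MMERVK10C-int elements in the chromosome 12 interval that are 99.5% identical. The element chr12:20177457-20180623, whose start is printed above, had 37.75, 30.75 and 617.25 counts in WT and 0, 0.33 and 0.25 in Tet2-KO (log2 change -6.30 ± 1.44, edgeR adjusted p = 0.115). Its copy chr12:19587646-19590813 read 18.0, 10.2 and 101 CPM in WT and 0, 0 and 0.17 CPM in Tet2-KO. Every WT library was above every KO library for both, as the choice required, and WT 3 was the highest. Other copies of the interval were chosen after their values were seen. They were picked for at least 10 counts in each WT library and under 1 in each KO library, or for the most WT counts. Their lack of overlap was thus set or favoured by the choice. One of them had 36.5, 31.5 and 14.25 counts in WT and 0, 0.33 and 0.25 in Tet2-KO at chr12:22639424-22642788, which is 93.5% identical to the first, with WT 3 here the lowest WT library. The longer element chr12:20355643-20361909 had 9.6, 466.73 and 610.73 counts in WT and 0, 0 and 1.5 in Tet2-KO.

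RLTR10 elements outside the interval were among the lowest too. The element chr12:91139745-91142760, antisense in the centrosome gene Cep128, read 32.8, 73.0 and 9.24 CPM in WT and 2.14, 0.63 and 0.51 CPM in Tet2-KO (log2 change -4.13 ± 0.846, edgeR adjusted p = 0.101). The element chr13:65321819-65324476 read 19.4, 32.2 and 10.4 CPM in WT and 1.52, 0.35 and 0.47 CPM in Tet2-KO. The element chr12:5052046-5055013, which lies 4652 bases from Atad2b, read 31.4, 9.25 and 40.2 CPM in WT and 1.45, 2.82 and 0.41 CPM in Tet2-KO. In all of these the groups did not overlap, as the choice required. A well-covered MMERVK10C-int element with a smaller difference, chr5:26378713-26386909, was chosen after its values were seen. It read 148, 82.3 and 83.8 CPM in WT and 36.9, 66.6 and 42.3 CPM in Tet2-KO. The log2 change was -1.09 ± 0.400 (edgeR adjusted p = 0.189).

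RLTR10D, an LTR subfamily, owed its level to the same chromosome 12 interval. There 35 of its 479 elements held 96.9% of its counts, with 409, 1.00 and 1.48 counts in WT and 3.50, 392 and 1656 in Tet2-KO. WT 1, KO 2 and KO 3 were high and the other libraries near 0, so the groups overlapped, while elements elsewhere summed to 6.50 to 18.3 counts in every library. All 19 RLTR10D elements of at least 20 counts lay in the interval, and they had 11 distinct sequences. The printed copy, chr12:22417395-22417748, is identical to chr12:18903081-18903434 and chr12:23576428-23576781, and the 3 had 35.42, 32.75 and 31.5 counts in KO 2 and 232.5, 317.16 and 285.33 in KO 3. Their near-equal counts cannot be assigned to 1 copy. Among members of at least 300 bases, 3.53% had an exact copy and these held 6.18% of the counts, but in RLTR10D such copies held 78.8%, in RLTR10E 90.2% and in RLTR10C 26.3%, against 1.57% in RLTR10.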

How the data were processed

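Chromatin-associated RNA of WT and Tet2-KO mES cells was precipitated with an antibody to m5C and sequenced. Per the labels and the methods, reads were trimmed with Trimmomatic 0.39, aligned with HISAT2 2.1.0 to mm10, cleared of duplicates with Picard and counted per repeat element with featureCounts. The authors deposited estimated counts per element and library. The options that make them fractional are not given in the sources used here: 34.5% of the non-zero member values are below 1 and 9.77% are whole. Such counts may be divided between similar copies, which affects single loci more than sums. A second table, of human K-562 cells, was not used.

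Counts of DNA, LINE, LTR and SINE elements, as deposited or summed per subfamily, were rounded. WT and Tet2-KO were compared with edgeR 4.0.16 (R 4.3.3; filterByExpr, TMM, glmQLFit, two-sided, Benjamini-Hochberg over all tested features, biological coefficient of variation 0.663 for subfamilies and 0.656 for loci). TMM was fitted separately for subfamilies and loci, so their CPM are on different scales: CPM of single loci are on the locus scale and sums of elements on the subfamily scale. Effective library sizes were 2070637, 2864881 and 3009986 in WT and 1380257, 1136537 and 1478486 in Tet2-KO for loci. For subfamilies they were 2129422, 3021284 and 2974354 in WT and 1785039, 1619479 and 2187798 in Tet2-KO. The same counts thus give a higher KO over WT change on the locus scale. DESeq2 1.42.0, other scaling and filters, a replicate block and leaving out each library were alternatives. The scripts were tested on simulated counts. The precision is set by 3 libraries per group and totals of 1532029 to 3318565 counts.

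Every subfamily was named. Named loci were the 10 with the highest mean CPM, any called, and the 5 highest and 5 lowest log2 changes among loci with an unadjusted p under 0.05, no overlap and a mean of at least 20 counts. Members and lists were chosen with earlier results of these data known. Genes are from GENCODE M21, which may differ from the release the authors used. Identity is 1 minus the edit distance over the longer length.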

Additional observations from a re-analysis of the deposited data

How the results depend on the processing

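Under edgeR, 0 member subfamilies and 0 member loci were called in every alternative. DESeq2's Wald test called 40 member loci (9.98%, against 11.3% of all tested loci) and 0 member subfamilies (against 10.2% of all). The median log2 change of the member subfamilies ran from -0.24 to 0.22 without 1 library each, and that of the tested member loci from 0.39 to 0.99. The fits without joined elements and without the chromosome 12 interval were added after seeing the data. An alternative on elements that carry 1 subfamily name only was not run, because each element carries 1 name, and elements were classed by joined and single fragments instead.

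Uncalled values changed sign as follows, and the causes were not tested. MMERVK10C-int gave 0.16 with library totals, 0.13 without the chromosome 12 interval and 0.03 without its highest element. Without the interval RLTR10-int gave 0.20, and without their highest element MMERVK10D3_I-int gave -0.81 and RLTR10F 0.16. RLTR10B2 gave -0.0062 with a looser filter. RLTR10D kept its sign, from 0.87 to 6.01 without 1 library each. Without 1 library each, MMERVK10C-int ran from -0.16 to 0.15, MMERVK10D3_I-int from -0.16 to 0.48, RLTR10 from -0.0495 to 0.27, RLTR10-int from -0.61 to 0.10, RLTR10A from -1.98 to 1.66, RLTR10B from -0.72 to 0.68, RLTR10B2 from -0.61 to 1.17, RLTR10E from -3.55 to 2.28 and RLTR10F from -0.83 to 0.98. Among the highest loci, chr18:3216713-3219704 ran from -5.18 to 2.40, chr7:76041176-76044014 from -3.85 to 0.0496, chr3:156309838-156312870 from -3.90 to 2.31, chr12:91076675-91079644 from -1.57 to 1.79, chr16:34581508-34591124 from -0.97 to 0.87 and chr16:79852817-79855665 from -3.01 to 0.20.

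Libraries with the same replicate number did not deviate together (correlations of -0.09, -0.04 and -0.05 over subfamilies). With 3 libraries per group such values cannot exclude that same-numbered libraries were prepared together. With the replicate number as a block 0 members were called, the member medians were 0.02 for subfamilies and 0.42 for loci, and the sign changed in RLTR10A (-0.0711), RLTR10B (-0.0731), RLTR10E (-1.65), RLTR10F (0.0947), chr3:156309838-156312870 (1.04) and chr16:34581508-34591124 (-0.0319).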
